A study of Mus musculus with 11 samples.

Results

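The comparison described here sets thymocytes that carried 1 N440K allele of Bcl11b beside a wild-type allele (Bcl11b +/N440K) against thymocytes with 2 wild-type alleles (Bcl11b +/+), both from the mouse thymus at postnatal day 0. The members are 4 of the 11 libraries of the series, 2 of each genotype, and the 10910 genes that the authors' normalised table lists of 53801 identifiers in their count table. Cells of every group were sorted by flow cytometry for absence of CD24 and of TCRβ on the surface, which leaves out most developing αβ T cells. The 2 libraries of one more genotype, Bcl11b D/N440K at the same age, share the table. They entered the model fit and are shown beside the results, and what D stands for is not defined in the labels. No Cre, drug or other allele is named for these groups, and nothing in the labels says whether the 2 libraries of a genotype came from separate mice, so p-values measure the spread between these libraries, which may be technical. A sorted bulk library cannot tell fewer cells of a type from less RNA of that gene per cell, and this holds for every gene below. The title of the series names the question: whether the mutant Bcl11b protein interferes with the function of its relative Bcl11a.

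Bcl11b is a zinc finger transcription factor that commits progenitors in the thymus to the T lineage and holds back genes of natural killer (NK) and innate lymphoid cells (ILCs). Bcl11a is a close relative used by progenitors, B cells and neurons. Both recruit chromatin complexes and bind DNA through C2H2 zinc fingers, and a changed protein made from 1 allele can meet the partners and the sites of the protein made from the other.

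The allele name gives asparagine at residue 440 of Bcl11b as changed to lysine. In the annotation used here (GENCODE M21 on GRCm38), residue 440 of the 884-residue isoform Bcl11b-201 is asparagine, with the codon AAT at chr12:107916735-107916737 on the minus strand, in the last of 4 exons. The shorter isoforms Bcl11b-202 and Bcl11b-203 have another residue at that number. The matching asparagine of Bcl11a is residue 391, with the codon AAC at chr11:24163829-24163831 on the plus strand, in exon 4. The 15 codons around each are shown 5′ to 3′, with the asparagine codon in capitals, because they carry the changed residue and show how alike the relatives are there. The reference sequence is given, since the reads were not used here and the changed base is not named.
Bcl11b, chr12:107916714-107916758, minus strand: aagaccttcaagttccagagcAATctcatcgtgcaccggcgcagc
Bcl11a, chr11:24163808-24163852, plus strand: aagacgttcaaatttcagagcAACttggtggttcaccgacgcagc
These windows are identical at 35 of 45 bases and encode the same amino acid at 14 of 15 positions.

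The 4 libraries held between 999381 and 1246272 counted reads and between 17544 and 18584 genes with a read. Levels are normalised read counts (CPM), and each gene is given with the value of replicate 1 and then replicate 2 of a genotype. A difference is the log2 fold change of +/N440K against +/+ with its standard error. A gene was called at a Benjamini-Hochberg adjusted p under 0.05 in edgeR's quasi-likelihood test across all 10910 genes. Counts of the replicate pairs differed by more than sampling noise (chi-square per degree of freedom 1.17 in +/+ and 1.42 in +/N440K), so neither pair was counted as 1 library, which does not show that they came from separate mice. Reads of Xist, which is made in female cells, and of Y-linked genes were present in every library, and their part in the differences below was not tested. Xist was at 449 and 499.8 CPM in +/+ and 344 and 381 CPM in +/N440K (log2 fold change -0.40 ± 0.0913, edgeR adjusted p = 0.00224). It was not called by edgeR without +/+ replicate 2 (adjusted p = 0.0721) or by DESeq2 (adjusted p = 0.1). None of the 4 Y-linked genes was called by edgeR, DESeq2 or limma-voom (1 at an unadjusted p under 0.05). Of all 10910 genes, 2233 had an unadjusted edgeR p under 0.05, which is the background for such counts here and below. The 8 markers of immature double-positive thymocytes summed to 673 and 677 CPM in +/+ and to 59.6 and 59.2 CPM in +/N440K, and the part of that difference in the gene groups below was not tested.

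The +/N440K libraries differed from wild type at 10.1% of the genes tested, with 523 higher (4.79%) and 578 lower (5.3%). These shares are the background for the counts of every gene list below. Lower genes had moved further: the median size among called genes was 0.71 on the log2 scale for those higher and 1.02 for those lower. At 2-fold or more there were 141 higher and 294 lower genes, at 4-fold or more 19 and 102, and at 8-fold or more 2 and 35. All 21 called genes with a fitted change of 16-fold or more were lower. The smallest change called was 0.19. Values of the groups did not overlap at 1100 of the 1101 called genes, against 47.8% of all genes tested, and the exception was Fn1. For a called gene the lack of overlap is therefore nearly fixed by the call. Below it describes the values and adds no support. Protein-coding genes made up most calls, with 496 higher and 501 lower of 9862, and among 150 long intergenic RNAs 11 were higher and 11 lower. On the X chromosome 4.36% of 275 genes were called, against 8.11 to 12.6% on the single autosomes. DESeq2 called 357 of the 1101 genes, 173 higher and 184 lower, and with each of the 4 libraries left out in turn edgeR called between 726 genes (without +/+ replicate 1) and 945.

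**Figure D1:**
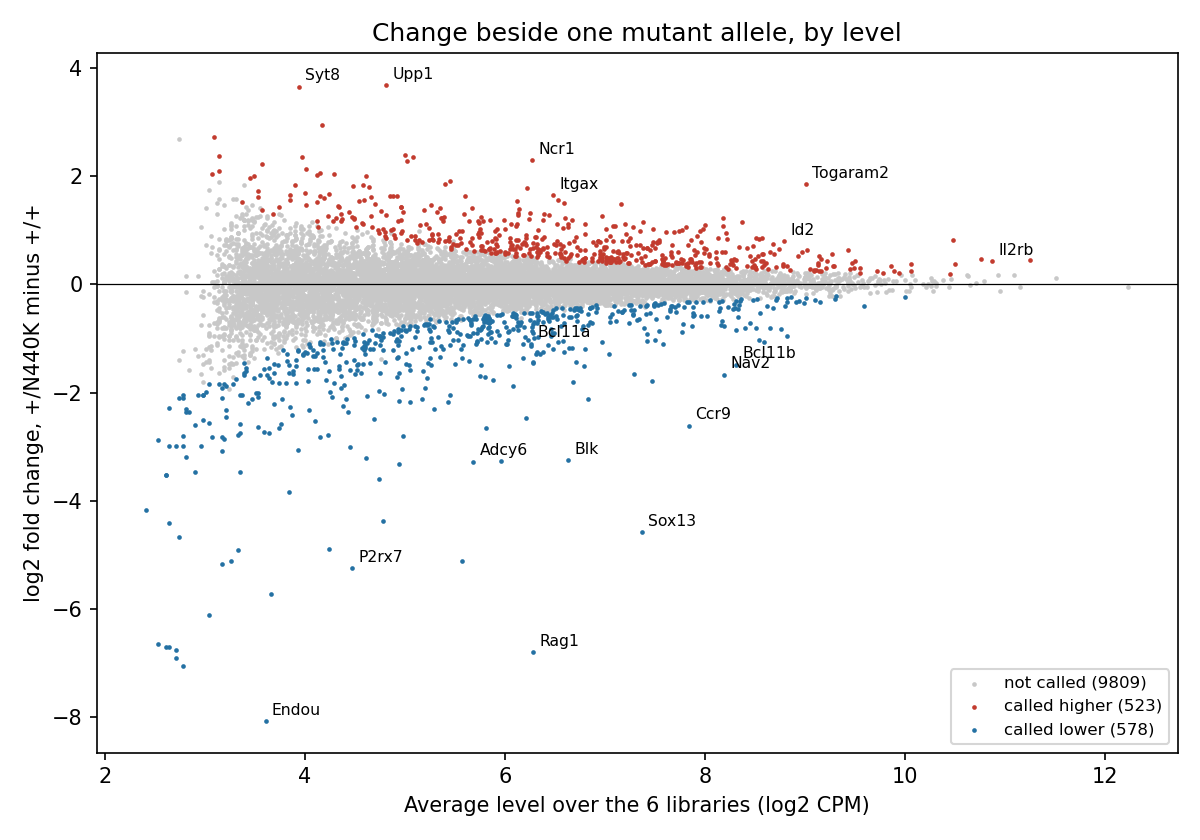
Average level of each of the 10910 tested genes over the 6 libraries of the table (x axis, log2 CPM) against its log2 fold change in Bcl11b +/N440K relative to +/+ (y axis). The 523 genes called higher are red, the 578 called lower are blue and the 9809 others grey; the points farthest from 0 lie below the line, where 102 genes fell by 4-fold or more and 19 rose as far.

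Transcripts of the targeted gene itself were fewer. Bcl11b (chr12:107910403-108003602) had 641 and 506 CPM in +/+ and 185 and 225 CPM in +/N440K (log2 fold change -1.48 ± 0.11, edgeR adjusted p = 3.59e-13). The count of the gene holds reads of both alleles, so the mutant and wild-type messages were not told apart. Bcl11a (chr11:24078056-24174123), which overlaps other annotated genes, had 102 and 111 CPM in +/+ and 47.3 and 53.3 CPM in +/N440K (log2 fold change -1.10 ± 0.164, edgeR adjusted p = 4.05e-06). For each gene both +/N440K libraries lay below both +/+ libraries. None of the 10 other tested genes within 1 Mb of Bcl11b was called by edgeR, DESeq2 or limma-voom, beside 10.1% of all genes by edgeR. So few genes cannot show a share below that of all genes. At an unadjusted edgeR p under 0.05 there were 2, beside 2233 of all 10910 genes. Setd3, Ccnk, Evl, Yy1 and Wars were among the 10. The log2 fold changes of the 10 ran from -0.86 (Slc25a29, edgeR adjusted p = 0.183) to 0.32 (Degs2).

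Among 31 transcription factors of the T lineage, 16 fell and 2 rose, and the median log2 fold change of the list was -0.28 against 0.00 for all genes. Lef1, an HMG-box partner of β-catenin, had 345 and 329 CPM in +/+ and 95.5 and 98.7 CPM in +/N440K (log2 fold change -1.79 ± 0.114, edgeR adjusted p = 3.09e-15). Myb, needed for early T cell development, had 208 and 179 CPM in +/+ and 64.5 and 43.4 CPM in +/N440K (log2 fold change -1.81 ± 0.159, edgeR adjusted p = 3.39e-11). Sox4, another HMG-box factor, had 96.2 and 71.4 CPM in +/+ and 15.5 and 21.7 CPM in +/N440K (log2 fold change -2.17 ± 0.241, edgeR adjusted p = 9.49e-09). All +/N440K values of these genes were below all wild-type values. Satb1, which organises chromatin loops in thymocytes, went from 651 and 536 to 304 and 270.4 CPM (log2 fold change -1.03 ± 0.095, edgeR adjusted p = 1.12e-10), and Ikzf2, the Ikaros relative Helios, from 663 and 678 to 376 and 311 CPM (log2 fold change -0.96 ± 0.0866, edgeR adjusted p = 7.59e-11). Ets2 fell by 1.44 on the log2 scale (180.1 and 174 to 56.3 and 75 CPM, edgeR adjusted p = 1.77e-09), Runx1 by 0.80 (544 and 479 to 246 and 346 CPM, edgeR adjusted p = 3.07e-07) and the zinc finger gene Patz1 by 0.81 (265 and 222 to 144 and 132 CPM, edgeR adjusted p = 2.15e-06). The member that rose most firmly was Zbtb7b, which encodes the CD4-lineage factor ThPOK, with 74.7 and 77.2 CPM in +/+ and 165 and 156 CPM in +/N440K (log2 fold change 1.08 ± 0.143, edgeR adjusted p = 3.99e-07). Of these 18 calls, 1 higher and 11 lower held with each of the 4 libraries left out, and DESeq2 made 1 and 12.

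Of 22 factors used by NK cells and ILCs, 7 rose and 4 fell, with a median of 0.37. Zfp683, which encodes the tissue-residency factor Hobit, had 49.1 and 51.5 CPM in +/+ and 97.9 and 85.9 CPM in +/N440K (log2 fold change 0.87 ± 0.169, edgeR adjusted p = 2.64e-04). Klf12 had 24.6 and 17.4 CPM in +/+ and 53.9 and 44.4 CPM in +/N440K (log2 fold change 1.26 ± 0.25, edgeR adjusted p = 3.48e-04). Both +/N440K libraries of these genes were above both wild-type libraries. The list did not move one way. Maf, a factor of γδ and type 17 cells, went from 443 and 419 to 249 and 259.6 CPM (log2 fold change -0.76 ± 0.0925, edgeR adjusted p = 7.01e-08), and Tox2, a relative of Tox, from 58.3 and 57.3 to 23.7 and 17.8 CPM (log2 fold change -1.46 ± 0.239, edgeR adjusted p = 2.03e-05), both lower without overlap. Klf2 (0.52) and the aryl hydrocarbon receptor gene Ahr (0.45) were called higher. Leaving out 1 library lost the call of Ahr without +/+ replicate 2 (up to 0.0574), with the highest edgeR adjusted p over the 4 fits in brackets. DESeq2 did not call Ahr and Klf2 (adjusted p from 0.0594 to 0.0718).

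The E proteins and their Id inhibitors set the balance between T cells and innate lymphocytes, and the Id genes moved in opposite directions. Id3 had 137 and 119.6 CPM in +/+ and 55.5 and 77 CPM in +/N440K (log2 fold change -0.96 ± 0.164, edgeR adjusted p = 3.75e-05), with both mutant libraries lower. Id2 was at 276 and 279.8 CPM in +/+ and 478 and 496 CPM in +/N440K (log2 fold change 0.81 ± 0.0867, edgeR adjusted p = 4.66e-09), with both higher. Among the E protein genes Tcf12 fell by 0.46 on the log2 scale (375 and 381 to 289.7 and 261 CPM, edgeR adjusted p = 4.58e-04) and overlaps 11 annotated genes, and Tcf4 fell by 0.69 (143 and 146 to 78.3 and 104 CPM, edgeR adjusted p = 0.00207). The fifth tested member of this list was not called. The call lost with 1 library left out was that of Tcf4 without +/N440K replicate 1 (up to 0.0646), with the highest edgeR adjusted p over the 4 fits in brackets. By DESeq2 Tcf4 was not called (adjusted p = 0.131).

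Genes of receptor gene recombination and of the pre-TCR stage held the deepest losses. In this list 8 of 10 tested genes fell and none rose, with a median of -3.1. Cd8a, a chain of the CD8 coreceptor, had 147 and 136 CPM in +/+ and 36.7 and 40.5 CPM in +/N440K (log2 fold change -1.88 ± 0.166, edgeR adjusted p = 3.74e-11). Cd4 had 69.6 and 68.9 CPM in +/+ and 7.34 and 12.8 CPM in +/N440K (log2 fold change -2.80 ± 0.283, edgeR adjusted p = 1.17e-09). The wild-type values of both were above all mutant values. Rag1, a subunit of the recombinase, had 205 and 260 reads in +/+ and 3 and 1 in +/N440K. Endou, which encodes a poly(U)-specific endoribonuclease, had 32 and 35 reads in +/+ and 0 and 0 in +/N440K, so its level was at least 22.9-fold lower against a floor of 3 reads over the +/N440K group. Rag2, the other recombinase subunit, had 11 and 18 reads in +/+ and 2 and 1 in +/N440K, a ratio of 9.91 with an exact 95% interval of 3.07 to 50.9 that covers counting error only; its edgeR adjusted p was 9.19e-04. The 8 genes are also the markers of double-positive thymocytes whose sums are given above, and all tested members of that marker list were called lower. With 1 library left out, edgeR lost the call of Rag2 without +/+ replicate 2 (up to 0.0831), with the highest edgeR adjusted p over the 4 fits in brackets. In DESeq2 Rag2 missed the threshold (adjusted p = 0.12).

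Segments of the TCR loci gave few reads each, and similar segments can share reads, so these values are uncertain. Of 9 tested genes of the γ locus 4 were called, all lower. The variable segments Tcrg-V4 with 22 and 20 reads in +/+ and 3 and 4 in +/N440K, and Tcrg-V6 with 28 and 25 reads in +/+ and 7 and 3 in +/N440K, were lower in both mutant libraries, and Tcrg-V5 with 58 and 59 reads in +/+ and 73 and 59 in +/N440K was not called. Trdc, the constant region of the δ chain, had 288 and 281 CPM in +/+ and 203 and 168 CPM in +/N440K (log2 fold change -0.60 ± 0.106, edgeR adjusted p = 6.12e-05). Trav15-1-dv6-1 had 9 and 16 reads in +/+ and 0 and 0 in +/N440K, at least 8.55-fold lower against the floor of 3 reads. The β constant region Trbc2 had 205 and 196 CPM in +/+ and 149 and 159.9 CPM in +/N440K, a difference of -0.37. Apart from Trdc and Trbc2 these segments were chosen after their values were seen. Leaving out 1 library lost the call of Trbc2 without +/+ replicate 1 or +/+ replicate 2 or +/N440K replicate 1 (up to 0.177), with the highest edgeR adjusted p over the 4 fits in brackets. Trbc2 and Tcrg-V4 were not called by DESeq2 (adjusted p = 0.446 and 0.0579).

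Several related signalling genes moved in opposite directions. Some chains and enzymes used by the T cell receptor were lower, and some relatives used in NK, B or myeloid cells were higher. These examples were picked from called genes. Of the kinase and receptor effector lists below, 13 of 22 and 27 of 41 tested members were not called. The CD3 chains carry ITAM motifs that the kinase Zap70 binds, and Fcer1g and Tyrobp (DAP12) do the same for activating NK receptors, mostly through Syk. Of 7 tested chains and adaptors all were called, 4 lower and 3 higher, with a median of -0.64. Cd3e had 508 and 496 CPM in +/+ and 299 and 315 CPM in +/N440K (log2 fold change -0.71 ± 0.0844, edgeR adjusted p = 4.07e-08). Cd247, the ζ chain, had 135 and 142 CPM in +/+ and 62 and 65.1 CPM in +/N440K (log2 fold change -1.13 ± 0.146, edgeR adjusted p = 2.65e-07). Cd3d fell by 0.78 on the log2 scale (102 and 98 to 53 and 64.2 CPM, edgeR adjusted p = 7.11e-04) and Cd3g by 0.64 (185 and 190.1 to 122 and 118 CPM, edgeR adjusted p = 1.62e-04). All 4 CD3 genes had every mutant value below every wild-type value. Fcer1g had 154 and 156 CPM in +/+ and 221 and 253 CPM in +/N440K (log2 fold change 0.61 ± 0.113, edgeR adjusted p = 1.5e-04). Tyrobp had 88 and 91.3 CPM in +/+ and 123 and 145 CPM in +/N440K (log2 fold change 0.57 ± 0.139, edgeR adjusted p = 0.00389). Hcst, the DAP10 adaptor, had 61.4 and 51.5 CPM in +/+ and 80 and 84.9 CPM in +/N440K (log2 fold change 0.55 ± 0.17, edgeR adjusted p = 0.0281). In these 3 genes both mutant libraries were above both wild-type libraries. Leaving out a library ended the calls of Hcst without +/+ replicate 2 or +/N440K replicate 1 or +/N440K replicate 2 (up to 0.351) and Tyrobp without +/N440K replicate 2 (up to 0.0727), with the highest edgeR adjusted p over the 4 fits in brackets. DESeq2 did not call Cd3d, Hcst and Tyrobp (adjusted p from 0.0976 to 0.506).

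Tyrosine kinases also divided, with 4 of 22 higher, 5 lower and a median of 0.02. The Src-family gene Blk, which is used by B cells and by γδ T cells, had 281 and 236 CPM in +/+ and 25.3 and 28.6 CPM in +/N440K (log2 fold change -3.25 ± 0.165, edgeR adjusted p = 1.77e-18). Jak3, the kinase of the common γ chain receptors, had 536 and 541 CPM in +/+ and 403 and 416 CPM in +/N440K (log2 fold change -0.40 ± 0.0792, edgeR adjusted p = 3.77e-04). Mutant values of both were below the wild-type values. Zap70 had 348 and 339.6 CPM in +/+ and 250.5 and 298 CPM in +/N440K (log2 fold change -0.33 ± 0.0954, edgeR adjusted p = 0.0175). Syk had 104 and 116 CPM in +/+ and 164 and 145 CPM in +/N440K (log2 fold change 0.49 ± 0.132, edgeR adjusted p = 0.0109), neither with overlap. Fes, a kinase of myeloid cells, had 118 and 112 CPM in +/+ and 193 and 201 CPM in +/N440K (log2 fold change 0.78 ± 0.12, edgeR adjusted p = 6.16e-06). Fgr had 56.3 and 63.1 CPM in +/+ and 91.4 and 90.8 CPM in +/N440K (log2 fold change 0.60 ± 0.167, edgeR adjusted p = 0.0135) and Lyn had 36.8 and 37.4 CPM in +/+ and 52.2 and 64.2 CPM in +/N440K (log2 fold change 0.64 ± 0.205, edgeR adjusted p = 0.0388). These last 3 were higher in both mutant libraries. Of the 9 calls, 1 higher and 3 lower held with each of the 4 libraries left out. The calls lost without 1 library were Fgr without +/+ replicate 1 (up to 0.123), Lyn without +/+ replicate 1 or +/+ replicate 2 or +/N440K replicate 2 (up to 0.262), Syk without +/+ replicate 1 or +/N440K replicate 1 (up to 0.14) and Zap70 without +/+ replicate 1 or +/+ replicate 2 or +/N440K replicate 1 (up to 0.319), with the highest edgeR adjusted p over the 4 fits in brackets. By DESeq2 Fgr, Lyn, Syk and Zap70 were not called (adjusted p from 0.242 to 0.518).

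Among 41 adaptors and effectors of the T cell receptor 9 fell and 5 rose, with a median of -0.05. They were called at 34.1%, beside 10.1% of all genes tested. Plcg1, the phospholipase C of T cells, had 150.4 and 167 CPM in +/+ and 66.9 and 48.4 CPM in +/N440K (log2 fold change -1.45 ± 0.156, edgeR adjusted p = 5.44e-09). Plcg2, its relative in B and NK cells, had 221 and 230 CPM in +/+ and 392 and 321 CPM in +/N440K (log2 fold change 0.67 ± 0.101, edgeR adjusted p = 5.05e-06). Lat, the membrane scaffold below Zap70, had 351 and 293 CPM in +/+ and 159 and 192 CPM in +/N440K (log2 fold change -0.87 ± 0.114, edgeR adjusted p = 2.98e-07). Lat2, a related scaffold of B, NK and mast cells, had 28.6 and 29.1 CPM in +/+ and 49.8 and 55.3 CPM in +/N440K (log2 fold change 0.85 ± 0.222, edgeR adjusted p = 0.00694). In both pairs the first gene was lower and the second higher in every mutant library. The inhibitory surface receptors Cd5, at 67.5 and 68.1 CPM in +/+ and 14.7 and 15.8 CPM in +/N440K (log2 fold change -2.15 ± 0.25, edgeR adjusted p = 2.5e-08), and Cd6, at 93.1 and 84.7 CPM in +/+ and 20.4 and 14.8 CPM in +/N440K (log2 fold change -2.30 ± 0.228, edgeR adjusted p = 7.81e-10), fell further. Themis, a thymocyte signalling adaptor, had 57.3 and 73.9 CPM in +/+ and 19.6 and 14.8 CPM in +/N440K (log2 fold change -1.92 ± 0.257, edgeR adjusted p = 4.49e-07). The Ras activator Rasgrp1 (433 and 352 to 294 and 285 CPM, -0.43) and the adaptor Grap2 (288 and 224 to 183 and 176 CPM, -0.50) fell by smaller amounts. Ubash3b, a phosphatase that dampens receptor signals, rose from 184 and 182 to 281 and 275 CPM (log2 fold change 0.60 ± 0.104, edgeR adjusted p = 4.5e-05). Of the 14 calls, 2 higher and 6 lower held with each library left out. Left-out libraries ended the calls of Grap2 without +/+ replicate 1 (up to 0.188), Lat2 without +/+ replicate 2 (up to 0.0619) and Rasgrp1 without +/+ replicate 1 (up to 0.157), with the highest edgeR adjusted p over the 4 fits in brackets. In DESeq2 Grap2, Lat2 and Rasgrp1 missed the threshold (adjusted p from 0.0717 to 0.239).

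**Figure D2:**
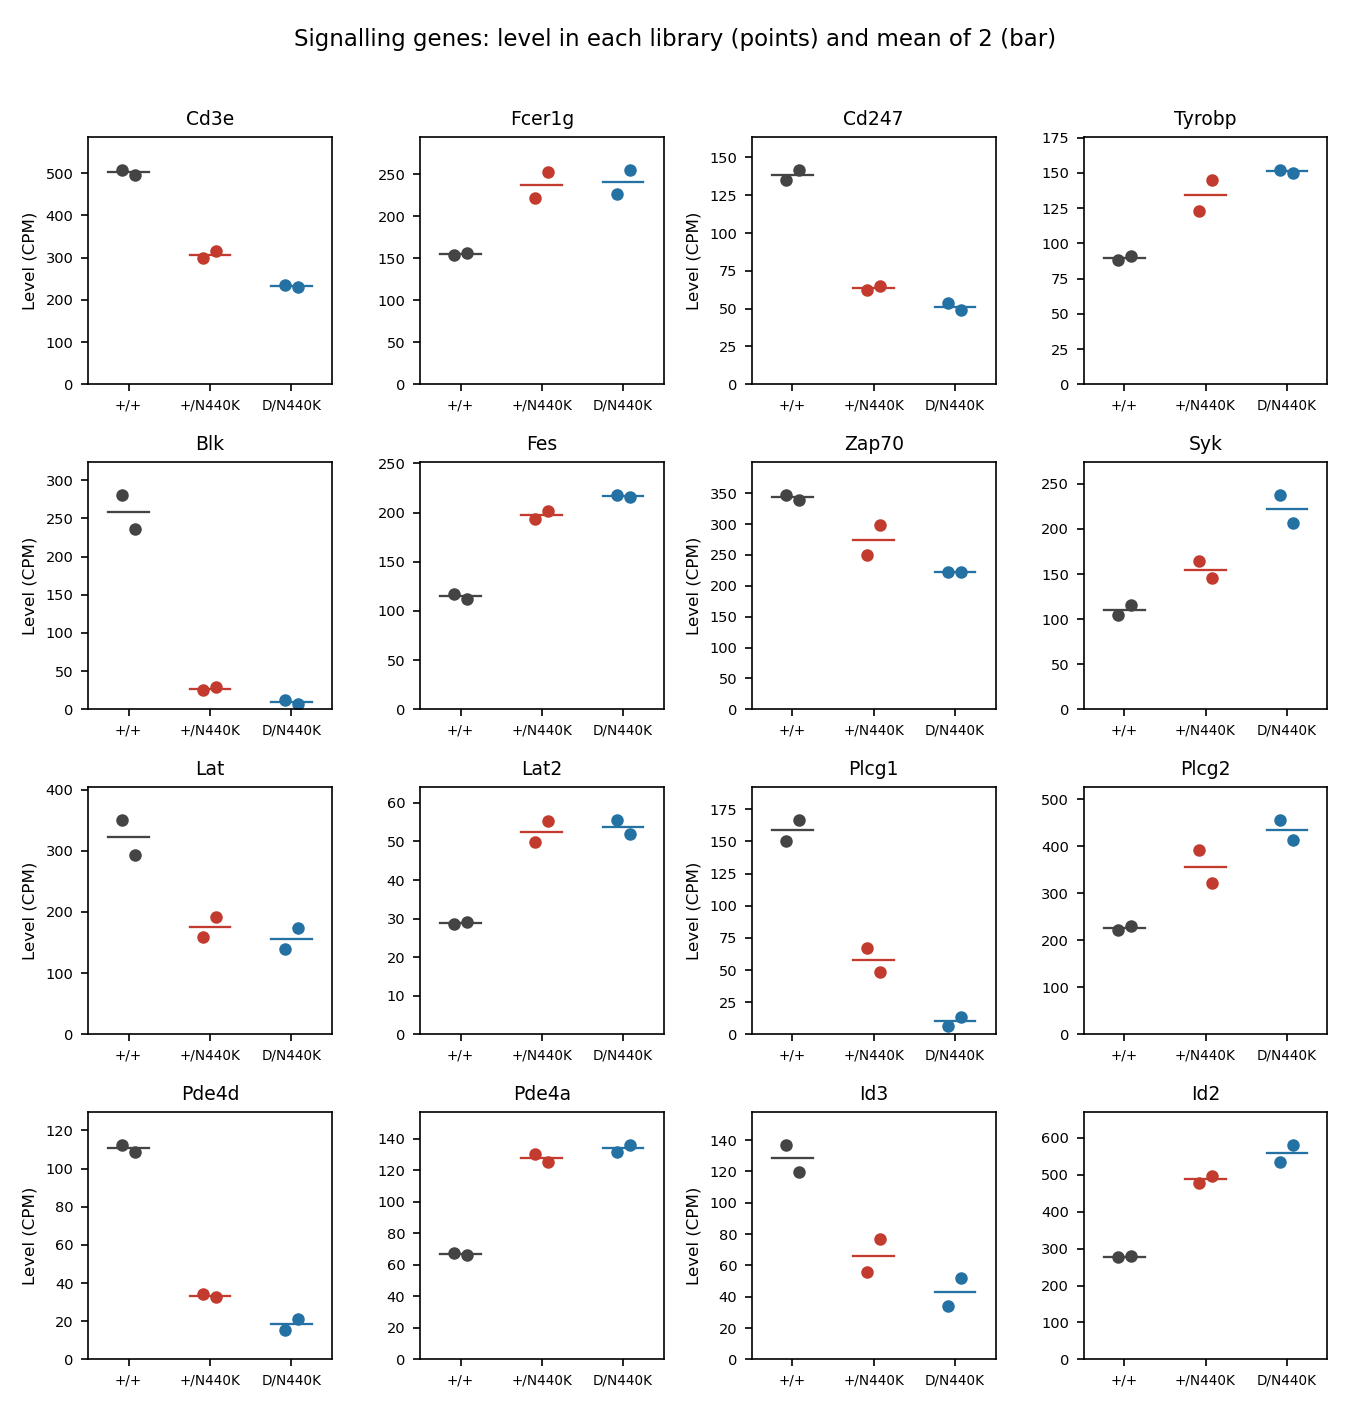
Level (CPM, y axis from 0) of 16 signalling genes in each library (points) of Bcl11b +/+, +/N440K and D/N440K. Bars mark the mean of the 2 libraries of a genotype. Each row holds 2 pairs picked from called genes, the first gene of a pair lower and the second higher. In the +/N440K libraries the first gene of each pair was below the wild-type libraries (Plcg1 at 66.9 and 48.4 against 150.4 and 167 CPM) and the second above them (Plcg2 at 392 and 321 against 221 and 230.0 CPM).

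In the messenger pathways below these receptors genes were called in both directions, and an imbalance between the directions was not tested. Of the 38 tested genes of the first list 26 were not called, and 31.6% were called, beside 10.1% of all genes. In the list of purine, cyclic AMP and calcium signalling 8 of 38 tested genes fell and 4 rose, with a median of -0.05, and 6 and 1 of these calls held with each library left out. Camk2d, a subunit of the calcium-dependent kinase CaMKII, had 284 and 277 CPM in +/+ and 82.4 and 96.7 CPM in +/N440K (log2 fold change -1.66 ± 0.121, edgeR adjusted p = 1.94e-13). Adcy6, an adenylyl cyclase that makes cyclic AMP, had 154 and 103 CPM in +/+ and 16.3 and 8.88 CPM in +/N440K (log2 fold change -3.28 ± 0.249, edgeR adjusted p = 5.39e-13). Camk4, a calcium-dependent kinase of thymocytes, had 238 and 196 CPM in +/+ and 132 and 130.3 CPM in +/N440K (log2 fold change -0.71 ± 0.124, edgeR adjusted p = 5.11e-05). None of these had overlapping values. P2rx7, an ATP-gated channel, had 49 and 72 reads in +/+ and 2 and 1 in +/N440K, a ratio of 41.4 with an exact 95% interval of 13.8 to 203. The phosphodiesterases that break down cyclic AMP again moved apart: Pde4d had 112 and 109 CPM in +/+ and 34.3 and 32.6 CPM in +/N440K (log2 fold change -1.72 ± 0.183, edgeR adjusted p = 3.68e-09) and Pde4a had 67.5 and 66.4 CPM in +/+ and 131 and 125 CPM in +/N440K (log2 fold change 0.94 ± 0.146, edgeR adjusted p = 7.85e-06). Itpr1, the calcium release channel of the endoplasmic reticulum, fell from 313 and 279.8 to 224 and 165 CPM (log2 fold change -0.59 ± 0.116, edgeR adjusted p = 3.51e-04). Adcy7 (0.28) and the calcineurin subunit gene Ppp3cc (0.72) were called higher. Leaving out 1 library lost the calls of Adcy7 without +/+ replicate 1 (up to 0.0577) and Ppp3cc without +/+ replicate 2 (up to 0.0761), with the highest edgeR adjusted p over the 4 fits in brackets. Adcy7 and Ppp3cc were not called by DESeq2 (adjusted p from 0.136 to 0.245).

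Regulators of small GTPases had 5 genes higher and 4 lower of 37, with a median of -0.01 and 24.3% called, beside 10.1% of all genes. With each library left out 2 higher and 1 lower of these calls held, and DESeq2 made 2 and 1. Prex1, an exchange factor for Rac, had 1495 and 1316 CPM in +/+ and 1852 and 2044 CPM in +/N440K (log2 fold change 0.47 ± 0.0662, edgeR adjusted p = 1.21e-06). Dock5, another, had 197 and 193 CPM in +/+ and 296 and 268 CPM in +/N440K (log2 fold change 0.54 ± 0.102, edgeR adjusted p = 2e-04). Both rose in both libraries. Rapgef3, the cyclic AMP-dependent exchange factor of Rap known as Epac1, had 33 and 32 reads in +/+ and 0 and 1 in +/N440K, a ratio of 66.7 with an exact 95% interval of 11.6 to 2670. In the list of phosphoinositide and growth signalling 3 of 28 rose and 6 fell, of which 2 and 2 held with each library left out and in DESeq2. Sgk1, a kinase below PI3K, had 136 and 122 CPM in +/+ and 224 and 285 CPM in +/N440K (log2 fold change 0.98 ± 0.121, edgeR adjusted p = 1.06e-07). Pik3r6, an adaptor of the PI3Kγ complex, had 21.5 and 27.4 CPM in +/+ and 64.5 and 48.4 CPM in +/N440K (log2 fold change 1.20 ± 0.245, edgeR adjusted p = 4.9e-04). Foxo3, a transcription factor restrained by Akt, had 306 and 287 CPM in +/+ and 163 and 197 CPM in +/N440K (log2 fold change -0.72 ± 0.109, edgeR adjusted p = 4.47e-06). The insulin receptor gene Insr had 92.1 and 87.2 CPM in +/+ and 43.2 and 44.4 CPM in +/N440K (log2 fold change -1.03 ± 0.18, edgeR adjusted p = 5.7e-05). No values of these 4 genes overlapped.

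Notch pathway genes, which instruct T lineage choice, included 3 higher and 1 lower of 24, with a median of 0.18. The share called was 16.7%, beside 10.1% of all genes tested. Dtx1, a Notch target, had 133 and 139.5 CPM in +/+ and 209.7 and 227 CPM in +/N440K (log2 fold change 0.67 ± 0.119, edgeR adjusted p = 6.75e-05). Nrarp, a target that limits the Notch complex, had 12.3 and 8.3 CPM in +/+ and 24.5 and 39.5 CPM in +/N440K (log2 fold change 1.63 ± 0.347, edgeR adjusted p = 8.73e-04). Lfng, which glycosylates Notch receptors, had 275 and 252 CPM in +/+ and 313 and 361 CPM in +/N440K (log2 fold change 0.35 ± 0.0984, edgeR adjusted p = 0.0137). The receptor gene Notch3 went the other way, from 162 and 158 to 34.3 and 21.7 CPM (log2 fold change -2.48 ± 0.177, edgeR adjusted p = 1.01e-13). All 4 genes had groups without overlap. With 1 library left out, edgeR lost the call of Lfng without +/+ replicate 2 or +/N440K replicate 2 (up to 0.208), with the highest edgeR adjusted p over the 4 fits in brackets. DESeq2 did not call Lfng and Nrarp (adjusted p from 0.0515 to 0.284).

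Cytokine receptor genes changed in both directions. Of 44 tested receptor genes 5 rose and 12 fell, with a median of -0.02 and 38.6% called, beside 10.1% of all genes. The subunits of the IL-18 receptor, which NK cells use, were both higher: Il18r1 had 249 and 227 CPM in +/+ and 425 and 436 CPM in +/N440K (log2 fold change 0.86 ± 0.0924, edgeR adjusted p = 4.61e-09) and Il18rap had 152 and 182 CPM in +/+ and 316 and 338 CPM in +/N440K (log2 fold change 0.95 ± 0.104, edgeR adjusted p = 6.08e-09). Il2rb, shared by the IL-2 and IL-15 receptors, had 1522 and 1491 CPM in +/+ and 1945 and 2118 CPM in +/N440K (log2 fold change 0.43 ± 0.0629, edgeR adjusted p = 2.63e-06). Lower were receptors that type 17 cells use, among other cells. Il1r1 had 122 and 110.4 CPM in +/+ and 38.4 and 28.6 CPM in +/N440K (log2 fold change -1.77 ± 0.183, edgeR adjusted p = 1.95e-09). Il23r had 54.2 and 40.7 CPM in +/+ and 17.9 and 15.8 CPM in +/N440K (log2 fold change -1.46 ± 0.279, edgeR adjusted p = 1.97e-04). Il17re, a receptor for IL-17C, had 104 and 96.3 CPM in +/+ and 55.5 and 48.4 CPM in +/N440K (log2 fold change -0.94 ± 0.167, edgeR adjusted p = 7.93e-05). All values of these 6 genes were apart between the genotypes. Il21r fell from 148 and 129 to 54.7 and 58.2 CPM (log2 fold change -1.29 ± 0.164, edgeR adjusted p = 2.02e-07) and Ifngr1, the ligand-binding chain of the interferon-γ receptor, from 334 and 300.5 to 212 and 210.2 CPM (log2 fold change -0.58 ± 0.099, edgeR adjusted p = 3.75e-05). Of the 17 calls, 3 higher and 8 lower held with each library left out.

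Among 13 cytokine genes 4 rose and none fell, with a median of 0.25 and 30.8% called, beside 10.1% of all genes. Tgfb3 had 32.7 and 43.2 CPM in +/+ and 115 and 105 CPM in +/N440K (log2 fold change 1.52 ± 0.175, edgeR adjusted p = 2.25e-08). The chemokine gene Ccl5 had 208 and 211 CPM in +/+ and 311 and 326 CPM in +/N440K (log2 fold change 0.60 ± 0.0972, edgeR adjusted p = 1.59e-05). Xcl1, whose product draws cross-presenting dendritic cells, had 83.9 and 79.7 CPM in +/+ and 126 and 166 CPM in +/N440K (log2 fold change 0.82 ± 0.153, edgeR adjusted p = 1.51e-04). Mutant values of all 3 lay above the wild-type values. In the TNF superfamily list 17.4% of the 23 tested genes were called, beside 10.1% of all genes. In the TNF superfamily, with 3 of 23 higher and 1 lower (1 and 0 with each library left out), Tnfsf10 (TRAIL) rose from 197 and 178 to 274 and 281 CPM (log2 fold change 0.57 ± 0.103, edgeR adjusted p = 8.79e-05), Tnfrsf9 (4-1BB) from 60.4 and 52.3 to 88.1 and 98.7 CPM (log2 fold change 0.73 ± 0.165, edgeR adjusted p = 0.00175), and Cd27 fell from 229 and 201 to 174 and 149 CPM (log2 fold change -0.40 ± 0.116, edgeR adjusted p = 0.0198). With 1 library left out, edgeR lost the calls of Cd27 without +/+ replicate 1 or +/N440K replicate 2 (up to 0.255) and Tnfrsf9 without +/+ replicate 2 (up to 0.0727), with the highest edgeR adjusted p over the 4 fits in brackets. By DESeq2 Cd27 and Tnfrsf9 were not called (adjusted p from 0.106 to 0.369).

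Homing receptors changed in both directions, with 8 of 27 chemoattractant receptor genes higher, 7 lower and a median of -0.04. Ccr9, whose ligand CCL25 is made by thymic epithelium and gut, had 572 and 497 CPM in +/+ and 97.1 and 75 CPM in +/N440K (log2 fold change -2.61 ± 0.118, edgeR adjusted p = 5.92e-20). Ccr7, which guides cells within the thymus and to lymph nodes, had 80.8 and 58.1 CPM in +/+ and 20.4 and 9.87 CPM in +/N440K (log2 fold change -2.13 ± 0.268, edgeR adjusted p = 1.51e-07). Gpr132 had 123 and 116 CPM in +/+ and 57.9 and 40.5 CPM in +/N440K (log2 fold change -1.25 ± 0.167, edgeR adjusted p = 4.46e-07). These 3 fell in both libraries. In the other direction Cxcr3 had 145 and 158 CPM in +/+ and 299.5 and 308 CPM in +/N440K (log2 fold change 1.00 ± 0.105, edgeR adjusted p = 3.03e-09) and Cx3cr1 had 117 and 159 CPM in +/+ and 263 and 256 CPM in +/N440K (log2 fold change 0.89 ± 0.118, edgeR adjusted p = 4.31e-07). Gpr15, a gut homing receptor, had 79.8 and 82.2 CPM in +/+ and 150.2 and 129 CPM in +/N440K (log2 fold change 0.79 ± 0.14, edgeR adjusted p = 6.92e-05). Ccr2 (66.5 and 78.9 to 122 and 107 CPM, 0.65) was also called higher, and Cxcr4 (131 and 105 to 72.6 and 78 CPM, -0.64) and Cxcr5 (67.5 and 54.8 to 38.4 and 21.7 CPM, -0.98) lower. Of the 15 calls, 3 higher and 5 lower held with each library left out. Not called when 1 library was left out were Ccr2 without +/+ replicate 1 or +/N440K replicate 1 (up to 0.0659), Cxcr4 without +/+ replicate 1 (up to 0.138) and Cxcr5 without +/N440K replicate 2 (up to 0.0848), with the highest edgeR adjusted p over the 4 fits in brackets. The log2 fold change of Ccr7 was -2.78 without +/N440K replicate 1. In DESeq2 Ccr2, Cxcr4 and Cxcr5 missed the threshold (adjusted p from 0.129 to 0.194).

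Among adhesion molecules more genes rose than fell, with 12 of 37 higher, 2 lower and a median of 0.17. Itga4 had 516 and 494 CPM in +/+ and 781 and 799.5 CPM in +/N440K (log2 fold change 0.65 ± 0.0732, edgeR adjusted p = 1.43e-08). Its partner chain Itgb7 had 793 and 785 CPM in +/+ and 964 and 1047 CPM in +/N440K (log2 fold change 0.35 ± 0.0686, edgeR adjusted p = 3.39e-04). Itgb1 had 92.1 and 108 CPM in +/+ and 180.3 and 150 CPM in +/N440K (log2 fold change 0.72 ± 0.134, edgeR adjusted p = 1.4e-04), with its collagen-binding partners Itga1 at 110.5 and 119.6 CPM in +/+ and 224 and 179.6 CPM in +/N440K (log2 fold change 0.82 ± 0.128, edgeR adjusted p = 8.42e-06) and Itga2 at 26.6 and 27.4 CPM in +/+ and 68.5 and 54.3 CPM in +/N440K (log2 fold change 1.19 ± 0.218, edgeR adjusted p = 1.1e-04). All of these chains were higher in both mutant libraries. Itgax, which encodes CD11c, had 35.8 and 29.1 CPM in +/+ and 99.6 and 103 CPM in +/N440K (log2 fold change 1.65 ± 0.183, edgeR adjusted p = 9.49e-09). Cd44, a hyaluronan receptor, had 218 and 231 CPM in +/+ and 367 and 360.3 CPM in +/N440K (log2 fold change 0.69 ± 0.0942, edgeR adjusted p = 6.26e-07). Of the 14 calls, 8 higher and 1 lower held with each library left out.

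Among guidance molecules 6 of 18 genes were called lower and 2 higher, with a median of -0.26 that was -0.08 without +/+ replicate 1. The share called was 44.4%, beside 10.1% of all genes tested. With each library left out 3 lower and 1 higher calls held, and DESeq2 made 2 and 1. Plxnd1, the receptor of semaphorin 3E in thymocytes, had 682 and 600.3 CPM in +/+ and 351 and 387 CPM in +/N440K (log2 fold change -0.80 ± 0.0837, edgeR adjusted p = 3.03e-09). Ephb2 had 47.1 and 35.7 CPM in +/+ and 11.4 and 14.8 CPM in +/N440K (log2 fold change -1.65 ± 0.308, edgeR adjusted p = 1.44e-04) and Ephb6, a kinase-inactive relative, had 68.5 and 51.5 CPM in +/+ and 26.9 and 29.6 CPM in +/N440K (log2 fold change -1.07 ± 0.227, edgeR adjusted p = 8.14e-04). Sema4a had 424 and 439 CPM in +/+ and 606 and 636 CPM in +/N440K (log2 fold change 0.52 ± 0.0778, edgeR adjusted p = 3.87e-06). The first 3 genes were lower and Sema4a higher in both mutant libraries. Ephb6 was not called by DESeq2 (adjusted p = 0.0943).

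Many genes for receptors and granule proteins of NK cells rose: 9 of 15 activating receptor genes, 5 of 11 inhibitory ones and 9 of 17 granule contents were higher, with medians of 0.76, 0.73 and 0.43. Fewer of these higher calls, 6, 3 and 5, held with each library left out, and DESeq2 made as many. Of the activating receptors Slamf6 was lower (31 and 45 reads in +/+ and 8 and 3 in +/N440K), and of the inhibitory ones Lair1 was lower (48.1 and 49.8 to 22.9 and 34.5 CPM, -0.80). Members of the lectin-like and granzyme families are alike in sequence, and their reads may have been shared. Klrb1c, which encodes NK1.1 in some strains, had 50.1 and 60.6 CPM in +/+ and 120 and 124 CPM in +/N440K (log2 fold change 1.12 ± 0.155, edgeR adjusted p = 8.47e-07). Klrd1, the CD94 chain, had 129.9 and 150.3 CPM in +/+ and 232 and 236 CPM in +/N440K (log2 fold change 0.73 ± 0.114, edgeR adjusted p = 8.4e-06). The immune checkpoint gene Lag3 had 50.1 and 52.3 CPM in +/+ and 115 and 88.8 CPM in +/N440K (log2 fold change 1.00 ± 0.172, edgeR adjusted p = 4.14e-05). In the granules Gzma had 147 and 161 CPM in +/+ and 304 and 353 CPM in +/N440K (log2 fold change 1.08 ± 0.109, edgeR adjusted p = 1.12e-09). Gzmb had 98.2 and 144 CPM in +/+ and 248 and 243 CPM in +/N440K (log2 fold change 0.99 ± 0.126, edgeR adjusted p = 1.88e-07). Ctsw, a cathepsin of cytotoxic cells, had 299.7 and 309 CPM in +/+ and 431 and 386 CPM in +/N440K (log2 fold change 0.43 ± 0.0888, edgeR adjusted p = 6.56e-04). No values of these 6 genes overlapped. Of 19 genes of granule exocytosis 5 rose and 1 fell (3 higher and none lower with each library left out), among them Myo1f, a motor protein, from 432 and 461 to 637 and 603 CPM (log2 fold change 0.47 ± 0.0776, edgeR adjusted p = 2.04e-05), and Sytl3, a tether of granules to the membrane, from 33.8 and 34.9 to 72.6 and 67.1 CPM (log2 fold change 1.03 ± 0.197, edgeR adjusted p = 2.26e-04). Syt8 had 1 and 2 reads in +/+ and 23 and 19 in +/N440K, a ratio of 13.7 with an exact 95% interval of 4.36 to 68.8. With 1 library left out, edgeR lost the call of Lair1 without +/+ replicate 1 or +/+ replicate 2 or +/N440K replicate 1 (up to 0.309), with the highest edgeR adjusted p over the 4 fits in brackets. DESeq2 did not call Lair1 (adjusted p = 0.455).

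All called genes of glucose breakdown were lower. Of 19 tested glycolysis genes 9 fell and none rose, with a median of -0.41. Pfkp, a phosphofructokinase, had 345 and 358 CPM in +/+ and 241 and 227 CPM in +/N440K (log2 fold change -0.59 ± 0.0963, edgeR adjusted p = 2.15e-05). Pfkl, its liver form, had 208 and 214 CPM in +/+ and 134 and 156 CPM in +/N440K (log2 fold change -0.55 ± 0.117, edgeR adjusted p = 8.82e-04). Pkm, pyruvate kinase, had 519.7 and 467 CPM in +/+ and 365 and 360.3 CPM in +/N440K (log2 fold change -0.44 ± 0.0842, edgeR adjusted p = 2.27e-04). Every mutant value of these genes was below every wild-type value. The first step enzyme Hk2 had 97.2 and 92.2 CPM in +/+ and 61.2 and 53.3 CPM in +/N440K (log2 fold change -0.71 ± 0.165, edgeR adjusted p = 0.00229). The glucose transporter gene Slc2a1 had 240.4 and 242 CPM in +/+ and 178 and 177 CPM in +/N440K (log2 fold change -0.45 ± 0.108, edgeR adjusted p = 0.00383). Pfkfb3, which makes the activator of phosphofructokinase, fell by 0.61 on the log2 scale, Pdk1, which restrains pyruvate dehydrogenase, by 0.70, Gpi1 by 0.32 and Aldoa by 0.25 (edgeR adjusted p = 0.00429, 0.00566, 0.0376 and 0.0492). The changes were small, and 5 of the 9 calls held with each of the 4 libraries left out while DESeq2 made 2. The calls lost without 1 library were Aldoa without +/+ replicate 1 or +/N440K replicate 1 (up to 0.443), Gpi1 without +/+ replicate 1 or +/+ replicate 2 or +/N440K replicate 1 (up to 0.364), Pdk1 without +/+ replicate 1 or +/N440K replicate 1 (up to 0.147) and Pfkfb3 without +/+ replicate 2 or +/N440K replicate 2 (up to 0.096), with the highest edgeR adjusted p over the 4 fits in brackets. By DESeq2 Aldoa, Gpi1, Hk2, Pdk1, Pfkfb3, Pfkl and Slc2a1 were not called (adjusted p from 0.0917 to 0.481).

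Sterol and fatty acid genes moved in a like way, with 8 of 28 lower, 2 higher and a median of -0.17. In cholesterol synthesis Sqle had 84.9 and 88 CPM in +/+ and 48.1 and 47.4 CPM in +/N440K (log2 fold change -0.86 ± 0.172, edgeR adjusted p = 4.37e-04). Srebf2, which switches on this pathway, had 612 and 515 CPM in +/+ and 427 and 469 CPM in +/N440K (log2 fold change -0.33 ± 0.0844, edgeR adjusted p = 0.00667), and Cyp51 fell by 0.70 on the log2 scale (70.6 and 77.2 to 40.8 and 51.3 CPM, edgeR adjusted p = 0.00943). Fads2, a fatty acid desaturase, had 30.7 and 28.2 CPM in +/+ and 8.98 and 7.9 CPM in +/N440K (log2 fold change -1.78 ± 0.366, edgeR adjusted p = 5.28e-04). The genes that rose were the sterol exporters Abca1, at 33.8 and 41.5 CPM in +/+ and 93.8 and 96.7 CPM in +/N440K (log2 fold change 1.32 ± 0.184, edgeR adjusted p = 1.01e-06), and Abcg1, at 197 and 174 CPM in +/+ and 246 and 259 CPM in +/N440K (log2 fold change 0.45 ± 0.107, edgeR adjusted p = 0.00322). Of all these genes none had overlapping groups. Of the 10 calls 1 higher and 3 lower held with each library left out, and DESeq2 made 1 and 1. Left-out libraries ended the calls of Abcg1 without +/+ replicate 2 (up to 0.14), Cyp51 without +/+ replicate 2 or +/N440K replicate 1 (up to 0.147) and Srebf2 without +/+ replicate 1 or +/N440K replicate 1 (up to 0.29), with the highest edgeR adjusted p over the 4 fits in brackets. In DESeq2 Abcg1, Cyp51, Fads2, Sqle and Srebf2 missed the threshold (adjusted p from 0.0609 to 0.357).

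Of 14 amino acid transporter genes 5 fell and none rose, with a median of -0.24, and 3 calls held with each library left out while DESeq2 made 2. Slc1a5, a glutamine transporter, had 394 and 417 CPM in +/+ and 254 and 282 CPM in +/N440K (log2 fold change -0.60 ± 0.0907, edgeR adjusted p = 4.34e-06). Slc43a2, a carrier of large neutral amino acids, had 389.8 and 416 CPM in +/+ and 277 and 222 CPM in +/N440K (log2 fold change -0.69 ± 0.0968, edgeR adjusted p = 1.43e-06). Both fell in both libraries. Slc7a11, the cystine transporter, had 11 and 15 reads in +/+ and 0 and 1 in +/N440K, a ratio of 26.7 with an exact 95% interval of 4.38 to 1090. Across all 178 tested solute carriers 4 rose and 12 fell, with a median of -0.03. That was 9.0% called, beside 10.1% of all genes tested. In nucleotide metabolism 1 of 28 genes rose and 1 fell, or 7.1% called. The one that rose, the uridine phosphorylase gene Upp1, had 2.05 and 2.49 CPM in +/+ and 40.8 and 19.7 CPM in +/N440K (log2 fold change 3.70 ± 0.523, edgeR adjusted p = 1.03e-06). The log2 fold change of Upp1 was 3.04 without +/N440K replicate 1.

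**Figure D3:**
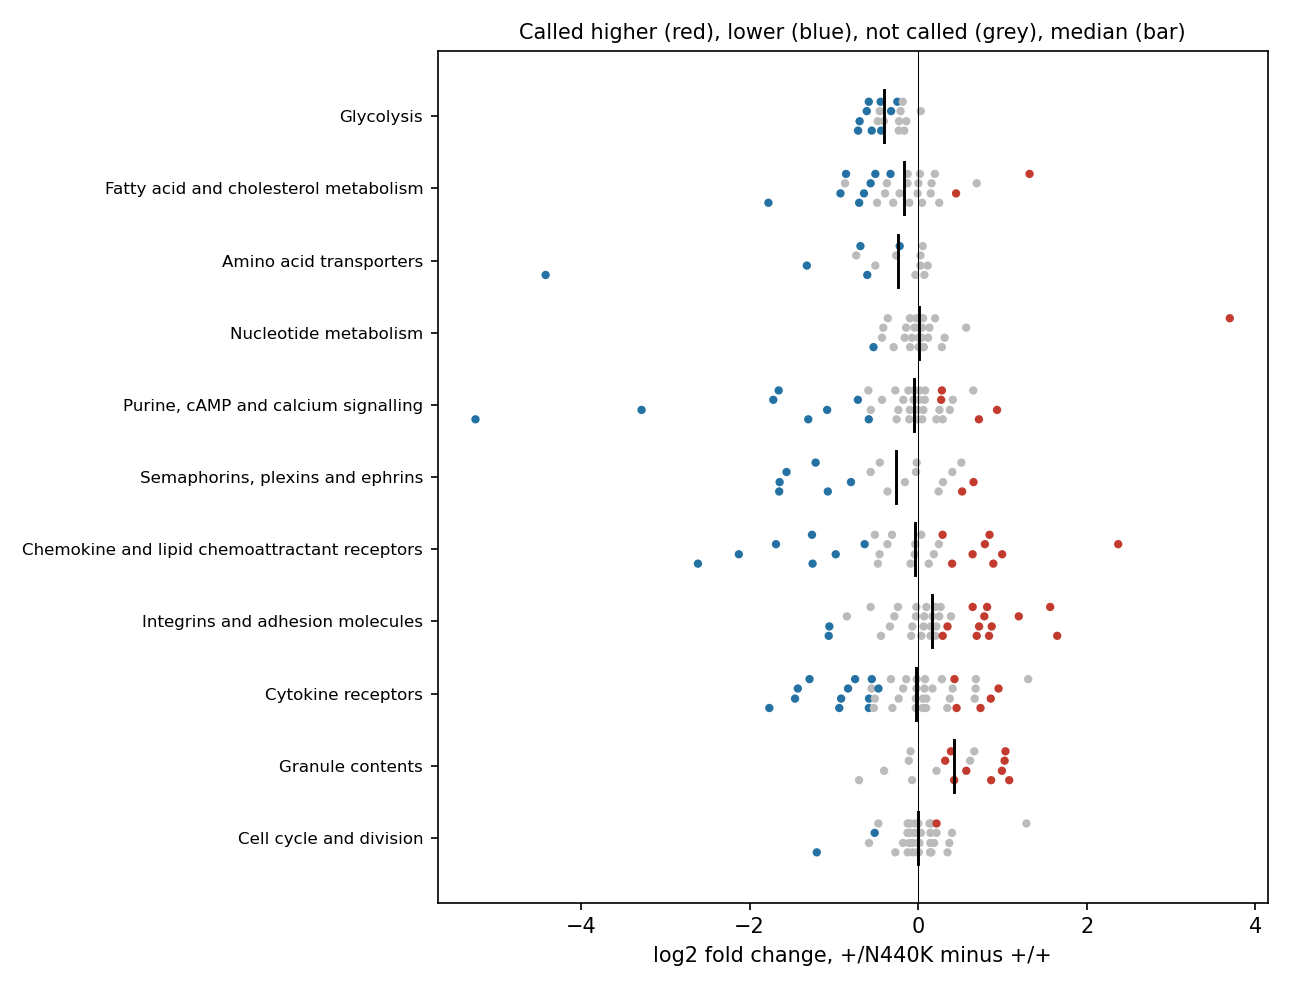
Log2 fold change in Bcl11b +/N440K against +/+ (x axis) of each tested member (points) of 11 gene lists, with called members coloured and a bar at the median of the list. All 9 called glycolysis genes and all 5 called amino acid transporters lie left of 0 and all 9 called granule genes right of it, while chemokine receptors lie on both sides.

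Among chromatin regulators the share of members called was 0% in the NuRD list, 15.4% in the Polycomb list and 19.0% in the BAF list, beside 10.1% of all genes. None of 15 tested NuRD genes, a complex that Bcl11b recruits, was called by edgeR, DESeq2 or limma-voom (2 at an unadjusted p under 0.05), and Chd3 had the smallest p, with 125 and 113 CPM in +/+ and 147 and 154 CPM in +/N440K (log2 fold change 0.34 ± 0.127, edgeR adjusted p = 0.082). Of 26 Polycomb genes 3 rose and 1 fell: Pcgf2 had 17.4 and 21.6 CPM in +/+ and 47.3 and 53.3 CPM in +/N440K (log2 fold change 1.34 ± 0.248, edgeR adjusted p = 1.31e-04) and Cbx7 had 97.2 and 82.2 CPM in +/+ and 151 and 137 CPM in +/N440K (log2 fold change 0.70 ± 0.137, edgeR adjusted p = 3.17e-04), both higher without overlap, and 2 of the higher Polycomb calls and not the lower one held with each library left out. Of 21 BAF complex genes, which include Bcl11 factors as subunits, 4 fell and none rose, led by Bcl7a at 102 and 75.5 CPM in +/+ and 50.6 and 45.4 CPM in +/N440K (log2 fold change -0.86 ± 0.19, edgeR adjusted p = 0.00129), and none of the 4 held with each library left out. With 1 library left out, edgeR lost the call of Bcl7a without +/+ replicate 1 (up to 0.0698), with the highest edgeR adjusted p over the 4 fits in brackets. Bcl7a was not called by DESeq2 (adjusted p = 0.107).

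Lists of cell cycle, survival and stress genes stood on both sides of the 10.1% of all genes called, at 8.3% of cell cycle genes, 14.3% of the BCL2 family and death receptors and 16.7% of immediate early genes. Of 36 cell cycle genes 1 rose and 2 fell, with Ccnd1 at 62.4 and 52.3 CPM in +/+ and 16.3 and 34.5 CPM in +/N440K (log2 fold change -1.20 ± 0.266, edgeR adjusted p = 0.00137). Of 71 tested genes with ribosomal protein symbols, which include pseudogenes, 2.8% were called. Rps27l rose (0.93) and the pseudogene Rps3a3 was called lower. Among 21 interferon response genes 1 fell, and none of 32 histone genes or 7 GIMAP genes was called by edgeR, DESeq2 or limma-voom (1 and 2 at an unadjusted p under 0.05). Of 21 genes of the BCL2 family and death receptors 2 rose and 1 fell, the last being Bmf, which promotes cell death, at 40.9 and 31.6 CPM in +/+ and 15.5 and 9.87 CPM in +/N440K (log2 fold change -1.46 ± 0.316, edgeR adjusted p = 0.00103). Of 18 immediate early genes 3 rose, led by Fosl2 at 124 and 124 CPM in +/+ and 203 and 209 CPM in +/N440K (log2 fold change 0.73 ± 0.117, edgeR adjusted p = 1.33e-05), and 1 of the 3 calls held with each library left out and in DESeq2. Of 5 Ly6 genes 2 rose and 2 fell, with Ly6d at 52.2 and 48.1 CPM in +/+ and 14.7 and 18.8 CPM in +/N440K (log2 fold change -1.59 ± 0.262, edgeR adjusted p = 2.15e-05). With each library left out, none of the cell cycle calls, 1 lower and no higher call of the BCL2 family and 1 lower and no higher Ly6 call held, and DESeq2 called only 1 Ly6 gene of these 3 lists. Calls lost with 1 library left out were Ccnd1 without +/N440K replicate 1 (up to 0.0876) and Rps27l without +/+ replicate 2 or +/N440K replicate 2 (up to 0.0532), with the highest edgeR adjusted p over the 4 fits in brackets. DESeq2 did not call Bmf, Ccnd1 and Rps27l (adjusted p from 0.0873 to 0.235).

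**Figure D4:**
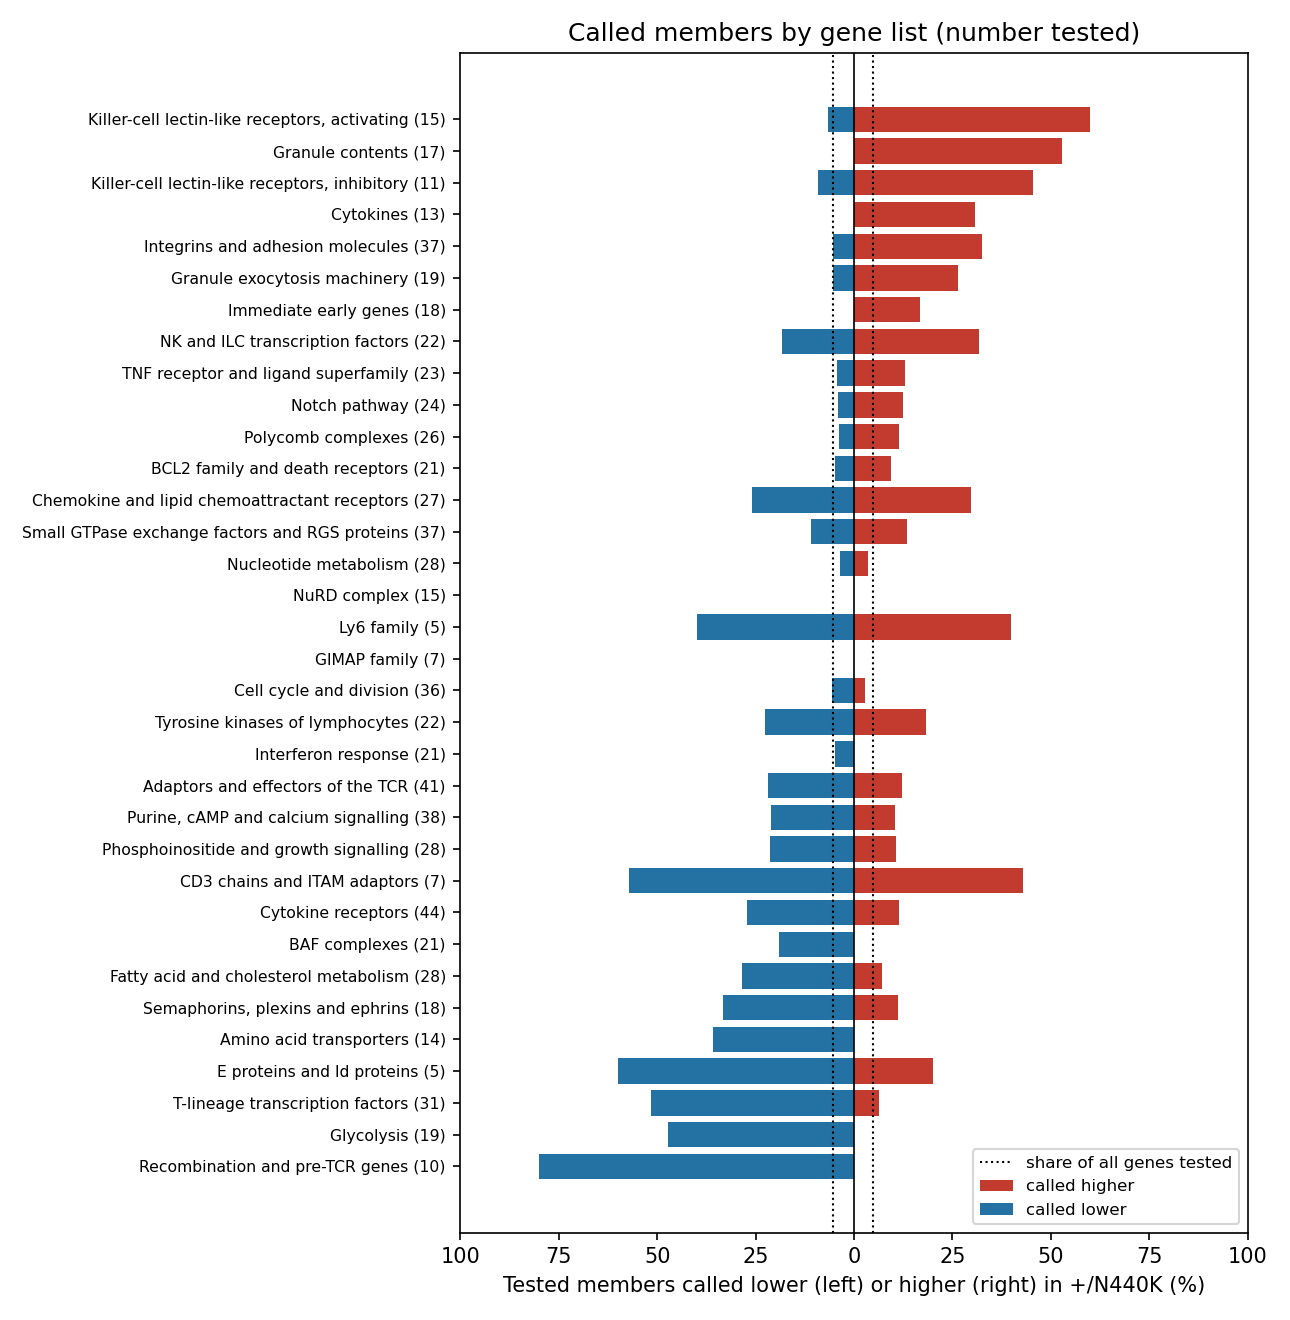
Share of the tested members (percent, x axis) of the gene lists by function, without the cell type markers, receptor loci, Bcl11 genes and families by symbol, called lower in Bcl11b +/N440K (left of 0) and higher (right of 0); dotted lines mark the shares of all tested genes, 5.3% lower and 4.79% higher. Of the lists drawn, the recombination list (8 of 10 lower) reaches farthest left and the activating NK receptor list (9 of 15 higher) farthest right.

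Outside the lists, the genes that differed most in size fell. Eng, which encodes endoglin, a coreceptor for TGFβ ligands, had 145 and 141 CPM in +/+ and 16.3 and 12.8 CPM in +/N440K (log2 fold change -3.27 ± 0.212, edgeR adjusted p = 5.55e-15). Pdlim4, a cytoskeletal protein gene, had 84 and 59 reads in +/+ and 7 and 5 in +/N440K, a log2 fold change of -3.60, and the phosphatase gene Ptpn14 had 56 and 54 reads in +/+ and 7 and 5 in +/N440K, a change of -3.21. Hif3a, a member of the hypoxia-inducible factor family, had 48 and 55 reads in +/+ and 7 and 6 in +/N440K, a change of -3.00. Reads of all 4 genes were fewer in both mutant libraries. Hspg2, which encodes the matrix protein perlecan, had 50 and 44 reads in +/+ and 1 and 2 in +/N440K, a ratio of 32.1 (exact 95% interval 10.7 to 159), and Fbln2, the matrix protein fibulin-2, had 13 and 24 reads in +/+ and 0 and 1 in +/N440K, a ratio of 37.9 (6.4 to 1540). Among the largest rises Arl4d, a small GTPase of the ADP-ribosylation factor family, had 5 and 12 reads in +/+ and 51 and 40 in +/N440K (log2 fold change 2.37 ± 0.34, edgeR adjusted p = 1.61e-06). Lif, a cytokine gene of the IL-6 family, had 7 and 4 reads in +/+ and 32 and 16 in +/N440K (log2 fold change 2.06 ± 0.449, edgeR adjusted p = 0.00107). The call lost with 1 library left out was that of Lif without +/+ replicate 2 or +/N440K replicate 1 (up to 0.069), with the highest edgeR adjusted p over the 4 fits in brackets. The log2 fold change of Arl4d was 2.96 without +/+ replicate 2. By DESeq2 Lif was not called (adjusted p = 0.0668).

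Some genes of higher level had more certain changes, and these were chosen after their values were seen. Togaram2, a microtubule-associated protein gene, had 175 and 167 CPM in +/+ and 614 and 618 CPM in +/N440K (log2 fold change 1.85 ± 0.0904, edgeR adjusted p = 6.82e-19). Ahnak, a large scaffold protein, had 961 and 892 CPM in +/+ and 1619 and 1673 CPM in +/N440K (log2 fold change 0.83 ± 0.0649, edgeR adjusted p = 1.36e-12). Fam129b had 134 and 156 CPM in +/+ and 352 and 335 CPM in +/N440K (log2 fold change 1.24 ± 0.105, edgeR adjusted p = 1.34e-11). Fgd5, an exchange factor for Cdc42, had 62.4 and 65.6 CPM in +/+ and 189 and 169 CPM in +/N440K (log2 fold change 1.49 ± 0.14, edgeR adjusted p = 2.34e-10). All were higher in both mutant libraries. Nav2 had 649.6 and 504 CPM in +/+ and 179 and 182 CPM in +/N440K (log2 fold change -1.67 ± 0.104, edgeR adjusted p = 1.89e-15) and overlaps 9 annotated genes. The receptor phosphatase gene Ptprf had 246 and 222 CPM in +/+ and 36.7 and 73 CPM in +/N440K (log2 fold change -2.13 ± 0.163, edgeR adjusted p = 7.5e-13). Hdac7, a class IIa histone deacetylase of thymocytes, had 648 and 569.5 CPM in +/+ and 295 and 286 CPM in +/N440K (log2 fold change -1.06 ± 0.0882, edgeR adjusted p = 8.47e-12). Igfbp4, an IGF-binding protein gene, had 128 and 131 CPM in +/+ and 29.4 and 9.87 CPM in +/N440K (log2 fold change -2.65 ± 0.222, edgeR adjusted p = 8.78e-12). These 4 were lower in both mutant libraries. The log2 fold change of Igfbp4 was -3.70 without +/N440K replicate 1.

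Markers of other cells that the sort could hold moved with the genotype in part. Of 13 tested γδ and type 17 markers 10 were lower, beside 5.3% of all genes tested. The 13 summed to 4635 and 4101 CPM in +/+ and 2817 and 2841 CPM in +/N440K. Cd163l1, which was not called, gave 2143 and 2373 reads in +/+ and 2299 and 1990 in +/N440K, a large part of these sums. Of 16 tested NK and ILC1 markers 13 were higher, beside 4.79% of all genes tested. The 16 summed to 2599 and 2721 against 4181 and 4359 CPM. Il2rb alone gave 1488 and 1796 reads in +/+ and 2384 and 2146 in +/N440K, a large part of these sums. Of 7 tested ILC precursor markers 4 were higher and 3 lower, and they summed to 2610.0 and 2546 against 3079 and 3205 CPM. The 7 tested ILC2 markers, with Il17rb lower (-0.75), summed to 569 and 560 against 427 and 487 CPM. The 5 tested macrophage and granulocyte markers summed to 127 and 168 against 226 and 268 CPM, with Lyz2 (0.81) and S100a8 (2.96) called higher. S100a9, Elane and C1qa were at 0 in all 4 libraries. B cell markers were at 21.5 and 27.4 against 12.2 and 17.8 CPM, with Ms4a1, Pax5 and Igll1 at 0, and the 1 tested, Cd79b, was not called by edgeR, DESeq2 or limma-voom (unadjusted p under 0.05). The 3 tested stromal markers were at 111 and 105 against 88.1 and 73.0 CPM, with the endothelial gene Cdh5 lower (-1.61). Early progenitor markers, 4 of 8 tested lower, were at 358 and 350.4 against 237 and 259 CPM. Cd4, Cd8a and Cd8b1, all called lower, belong both to the double-positive list above and to the mature αβ list that follows. The counts and sums of those lists are therefore not separate observations. Of 12 tested markers of mature αβ T cells 7 were lower and 1 higher, of which 5 and 0 held with each library left out, and they summed to 1273 and 1204 against 810 and 888 CPM. Dendritic cell and MHC II markers, 1 higher and 1 lower of 10, summed to 742 and 479 against 354 and 741 CPM, so the replicates of each genotype stood apart, and 6 were called lower without +/N440K replicate 2. Erythroid markers summed to 57.3 and 27.4 against 26.9 and 10.9 CPM, with none of 4 called by edgeR, DESeq2 or limma-voom (2 at an unadjusted p under 0.05). The part of these cells in the differences above was not tested. Not called when 1 library was left out were Lyz2 without +/+ replicate 1 (up to 0.275) and S100a8 without +/N440K replicate 2 (up to 0.146), with the highest edgeR adjusted p over the 4 fits in brackets. In DESeq2 Cdh5, Il17rb, Lyz2 and S100a8 missed the threshold (adjusted p from 0.0907 to 0.772).

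The D/N440K libraries carry the N440K allele beside the D allele in place of a wild-type one. Both contrasts with wild type use the same 2 +/+ libraries, so they are not independent, and the values are given side by side. Compared directly, D/N440K and +/N440K differed at 58 genes, 0.532% of those tested, 31 higher and 27 lower in D/N440K, where D/N440K against +/+ gave 12.4% (6.1% higher, 6.31% lower). DESeq2 called 4 genes, among them Plxnd1, Plcg1 and Mtmr9, edgeR with each library left out called between 25 and 91, and 9 of the 58 held with each of the 4 libraries compared left out. Bcl11b itself was at 152 and 204 CPM in D/N440K against 185 and 225 CPM in +/N440K and was not called between them (edgeR adjusted p = 0.786). Bcl11a was at 64.2 and 71.2 CPM against 47.3 and 53.3 CPM (edgeR adjusted p = 0.49), also not called.

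Several signalling genes that were lower beside a wild-type allele were lower still beside the D allele. Plcg1 was at 150.4 and 167 CPM in +/+, 66.9 and 48.4 CPM in +/N440K and 6.85 and 13.2 CPM in D/N440K (log2 fold change -2.57 ± 0.293, edgeR adjusted p = 5.05e-07 for D/N440K against +/N440K). Plxnd1 was at 682 and 600.3 CPM, 351 and 387 CPM and 184 and 195 CPM in the same order (log2 fold change -0.96 ± 0.101, edgeR adjusted p = 1.33e-07). For these genes the 3 genotypes did not overlap. Cd5 (3.43 and 4.07 CPM in D/N440K, edgeR adjusted p = 0.0324), Cd3e (235 and 231 CPM, log2 fold change -0.40 ± 0.0952, edgeR adjusted p = 0.0361) and Trdc (114 and 116 CPM, log2 fold change -0.70 ± 0.125, edgeR adjusted p = 0.00215) were lower in the same order. With each of the 4 libraries compared left out in turn, Cd5 and Cd3e were lost in all 4 fits (edgeR adjusted p up to 0.303 and 0.252), and Trdc without +/N440K replicate 1 (up to 0.0827). In the opposite direction Syk was at 238 and 207 CPM in D/N440K against 164 and 145 CPM in +/N440K (log2 fold change 0.52 ± 0.116, edgeR adjusted p = 0.021; lost without +/N440K replicate 2 or D/N440K replicate 1, edgeR adjusted p up to 0.452), and Gdpd5, a glycerophosphodiesterase gene, rose from 173 and 134 CPM in +/+ to 362 and 309.9 CPM and 473 and 521 CPM (log2 fold change 0.55 ± 0.093, edgeR adjusted p = 8.35e-04).

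At Mtmr9, Dlg5, Dtx1, Cd3g and the pseudogene Rps3a3 the +/N440K libraries stood apart from both other genotypes. Other genes that differed between the mutants follow them. Mtmr9, of the myotubularin phosphatase family, was at 112 and 135 CPM in +/+, 57.1 and 53.3 CPM in +/N440K and 122 and 120.1 CPM in D/N440K (log2 fold change 1.13 ± 0.158, edgeR adjusted p = 4.59e-05). Dlg5, a scaffold protein gene, was at 140.2 and 143 CPM, 246 and 246 CPM and 159 and 154 CPM (log2 fold change -0.65 ± 0.108, edgeR adjusted p = 8.35e-04). Dtx1 was at 133 and 139.5 CPM, 209.7 and 227 CPM and 168 and 136 CPM (log2 fold change -0.51 ± 0.117, edgeR adjusted p = 0.0264), and Cd3g at 185 and 190.1 CPM, 122 and 118 CPM and 172 and 173 CPM (log2 fold change 0.52 ± 0.122, edgeR adjusted p = 0.0309). In +/N440K, Mtmr9 and Cd3g were below, and Dlg5 and Dtx1 above, all libraries of the other genotypes. The call of Dtx1 between the mutants was lost without +/N440K replicate 2 or D/N440K replicate 2 (edgeR adjusted p up to 0.464), and that of Cd3g in all 4 fits with a library left out (up to 0.220). The pseudogene Rps3a3 had 7 and 10 reads in +/+ and 0 and 0 in +/N440K, and reads of its many near copies may be shared with it. Hbb-bs, a β-globin gene of red cells, was at 31.7 and 5.81 CPM, 11.4 and 0.987 CPM and 48.8 and 57 CPM (log2 fold change 2.96 ± 0.441, edgeR adjusted p = 1.37e-04), with wide spread within +/+ and +/N440K. Tln2 was at 330.4 and 372 CPM, 362 and 359 CPM and 468 and 534 CPM (log2 fold change 0.47 ± 0.0866, edgeR adjusted p = 0.00307). Ptgdr2, a prostaglandin D2 receptor gene, was at 103 and 95.5 CPM, 68.5 and 86.9 CPM and 30.8 and 36.6 CPM (log2 fold change -1.20 ± 0.199, edgeR adjusted p = 8.35e-04). Hbb-bs (edgeR adjusted p = 0.122), Tln2 and Ptgdr2 were not called between +/N440K and +/+. Tln2 lost its call between the mutants without D/N440K replicate 2 (edgeR adjusted p = 0.137).

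**Figure D5:**
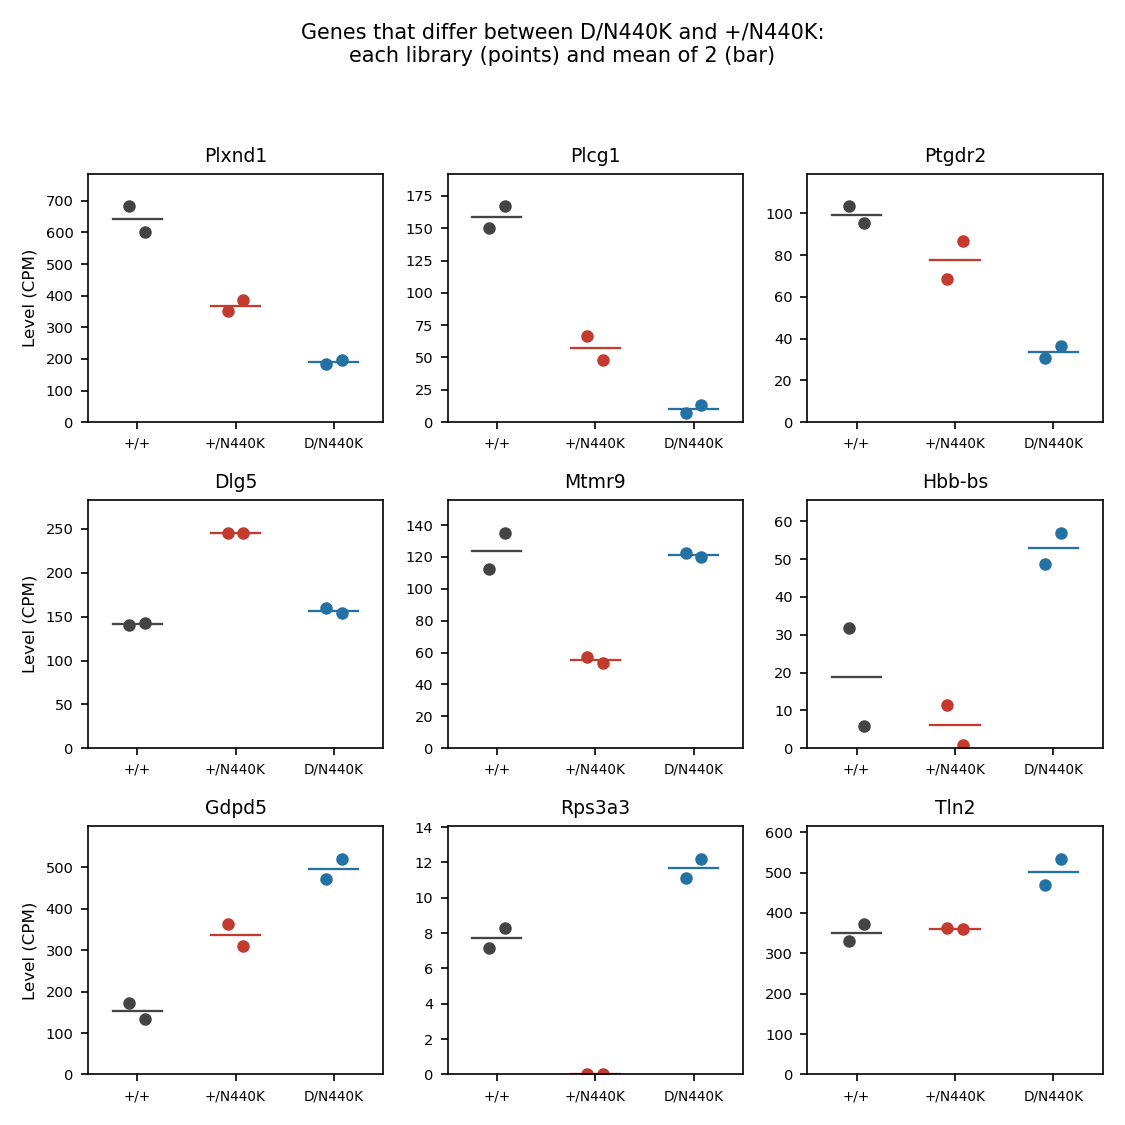
Level (CPM, y axis) per library (points) of 9 genes that differed between Bcl11b D/N440K and +/N440K, with bars at the mean of the 2 libraries of each genotype. Plxnd1 and Plcg1 descend from +/+ through +/N440K to D/N440K, while Mtmr9 is low (57.1 and 53.3 CPM) and Dlg5 high (246 in both libraries) in +/N440K alone.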

How the data were processed

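RNA of 6 libraries of sorted thymocytes at postnatal day 0 was used, 2 for each Bcl11b genotype; the 5 Tcf7 libraries of the series were not used. Per the labels' protocols, a variant of RamDA-seq was used, in which oligo(dT) primers and not-so-random ones copy total RNA before Tn5 tagging and PCR. The authors deposited raw counts per Ensembl gene, and CPM values normalised by library total and TMM factor. The submitters' processing notes name STAR 2.7.3a and HTSeq 0.11.2, besides fastp 0.20.0, Picard 2.21.1, SAMtools 1.9 and edgeR, and the build mm10 (GRCm38); the annotation and the strand of counting are not given in the sources used here. Of the 253 called genes in the lists, 129 overlap another annotated gene, whose reads may not be told apart.

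From the counts, filterByExpr (minimum count 10) kept the 10910 genes of the authors' CPM table, and edgeR 4.0.16 (R 4.3.3) fitted TMM-normalised counts with a coefficient per genotype over all 6 libraries (3 residual degrees of freedom, common biological coefficient of variation 0.0445), two-sided. Whole reads could be recovered from 100% of the CPM entries (tolerance 0.001), and edgeR called 1101 genes on them. Gene annotation was GENCODE M21. The script was tested on simulated data. Total counts of 999381 to 1246272 per library limit precision for genes of low level. Where a group held 0 reads, a bound used a floor of 3 reads over the group; with 1 to 3 reads a ratio with its exact 95% interval is given, for counting error only. Alternatives were RLE and upper-quartile scaling, no filter or CPM of 5 in 2 libraries, the 4 compared libraries alone, a replicate block, DESeq2 1.42.0, voom (limma 3.58.1), a log2 fold change of at least 1 and each library left out; those on the recovered reads, the D/N440K libraries and the D/N440K contrasts were added after seeing the data.

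The members, gene lists and tests were chosen with earlier results of these data known. Named are up to 5 called members of a list per direction by smallest p (where none, the first), the 12 largest called protein-coding changes per direction outside the lists at average log2 CPM of 3 or more, called cell type markers, tested genes within 1 Mb of Bcl11b and 5 genes per direction between the mutants; some genes that these rules name are not reported here, and other names were chosen after their values were seen. A search of promoters for motifs was void, since the reference held a promoter for 74.1% of the tested genes, below the 80% set as minimum.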

Additional observations from a re-analysis of the deposited data

How the results depend on the processing

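Among the alternatives tried no named gene that was called changed direction. Against 1101 called genes (523 higher, 578 lower, 253 in the lists), DESeq2 called 357 (173, 184, 120), all of them among the 1101, and a size of at least 1 on the log2 scale left 435 (141, 294, 89). RLE scaling gave 1093 genes, upper-quartile scaling 1103, no filter 1110, CPM of 5 in 2 libraries 1142, the 4 compared libraries alone 1069 and voom 1064, and none of the scalings moved the median of all genes by over 0.1. The share of calls that were higher was 47.5%, and 32.4% at a log2 fold change of at least 1. With each library left out in turn, counts ranged from 726 to 1121 for all calls, 337 to 527 for higher, 358 to 596 for lower and 177 to 250 for list genes; the lowest were without +/+ replicate 1 for all and for lower calls and without +/+ replicate 2 for higher calls. A lone library was then assumed to vary like the other groups. The 58 genes that differ between D/N440K and +/N440K became 4 by DESeq2, 21 at a log2 fold change of at least 1, 91 with no filter and 25 to 91 with each library left out; the 1353 of D/N440K against +/+ became 528 by DESeq2, 594 at that size and 924 to 1571 with each library left out.

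Whether replicate numbers pair the samples was not settled. Across genes, the deviations of same-numbered replicates correlated at -0.0326, -0.0324 and 0.00965 between the 3 pairs of genotypes. These deviations hold counting noise, so values near 0 cannot show that nothing was shared. With the replicate number as a block, 982 genes were called in +/N440K against +/+ (462 higher, 520 lower, 231 in lists), 1267 in D/N440K against +/+ and 37 between the mutants. The depth of these libraries limits genes of low level, for which reads and ratios stand in place of fitted folds.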
